A study of Homo sapiens with 3 samples.

Results

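Immediate early genes are switched on within minutes of a signal, without new protein synthesis, and most of their transcripts are short-lived. Growth factor signals reach them through the ERK cascade, which acts on ternary complex factors bound with SRF at CArG boxes, and stress or cAMP signals reach them through CREB and ATF proteins at cAMP response elements. FOS and JUN proteins pair through leucine zippers to form the transcription factor AP-1, and EGR proteins bind GC-rich DNA through zinc fingers. In the intestine, these genes are known for their response to serum, growth factors and damage of the epithelium.

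The group examined holds 10 genes, chosen by name from the 21614 genes that could be named on the array: FOS, FOSB, FOSL1, JUN, JUNB, EGR1, EGR3, IER2, ATF3 and DUSP1. They were measured by 13 probes, 1 for each gene and 4 for ATF3. The group was named for transcription factors, but DUSP1 encodes a phosphatase that inactivates MAP kinases, and it is described here as an immediate early gene. HT29 cells, a human cell line established from a colon adenocarcinoma, were cultured, with no drug or genetic change named in the labels, on tissue culture polystyrene (TCP), on a membrane of chitosan, a cationic polysaccharide derived from chitin (CS), or on a chitosan membrane with grafted hyaluronan, a ligand of the receptor CD44 (CSHA). The labels call these samples 2D, chitosan and chitosan_HA. RNA of each culture was hybridized to 1 single-colour array, so the data hold 3 arrays and 1 array per condition. Each culture was harvested once, so the values are levels at harvest and not a time course. The culture time and the way the cells were harvested for the arrays are not given in the sources used here.

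Because each condition had 1 array, the differences below have no replicate check and carry no p-value. Levels are log2 processed signals minus the 75th percentile of the array, so that a level of 0 means that 75% of the probes were dimmer. Of the probes, 48.6% to 51.1% were well above background on an array and no spot was saturated. The 3 arrays shared 1 slide and 1 scan date. The error beside a difference combines the errors that the scanner software gives for the spots of both arrays, and it does not include differences between cultures. For probes with at least 8 spots free of outlier flags on an array, the median SD among spots was 0.06 to 0.08 on the log2 scale. Of 12 colon epithelial markers, 11 were well above background on TCP and 12 on CS and on CSHA. Of 7 stromal markers, 2 were above background on TCP and 0 on CS or CSHA, with a summed level, in units of the 75th percentile, of 0.259, 0.112 and 0.103. The 2 were SPARC and VIM, and the collagen genes COL1A1, COL1A2 and COL3A1 were not well above background on any array. By their brightest probes, the 3 endothelial markers were above background on every array, at summed levels of 0.373, 0.319 and 0.385. Dimmer probes of VWF and PECAM1 were not well above background, except a PECAM1 probe on CS. Of 6 immune markers, 5 had a probe, and 4 were above background on TCP, 3 on CS and 4 on CSHA. Their summed levels were 3.19, 4.14 and 5.81, against 1305 to 1462 for the epithelial markers. Of the 4 with a value, 3 were higher than on TCP on each membrane. CD3E was lower, by a log2 difference of -2.78 or lower on CS and -1.75 on CSHA. Dimmer probes of PTPRC were not well above background, except a probe on TCP. The part of these markers in the differences below was not tested.

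Promoter sequence is shown for 4 genes. JUN, ATF3 and DUSP1 had the largest positive differences between CSHA and TCP in the group, and EGR1 had the most negative difference between CS and TCP. This choice was made after the values were seen. Sequences are from RefSeq on GRCh38.p14, run 5′ to 3′ on the strand of the gene, and span 250 bases before the annotated start to 50 bases from it. Capitals mark matches, on either strand, to TGACNTCA, a form of the cAMP response element (CRE), and to the CArG box bound by SRF.
JUN promoter, chr1:58783998-58784297, minus strand: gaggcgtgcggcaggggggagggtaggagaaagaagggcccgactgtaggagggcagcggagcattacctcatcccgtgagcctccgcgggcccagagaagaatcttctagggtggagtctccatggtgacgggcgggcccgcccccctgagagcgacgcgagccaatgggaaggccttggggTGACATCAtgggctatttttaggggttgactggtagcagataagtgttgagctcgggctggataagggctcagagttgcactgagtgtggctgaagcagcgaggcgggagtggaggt
ATF3 promoter, chr1:212565157-212565456, plus strand: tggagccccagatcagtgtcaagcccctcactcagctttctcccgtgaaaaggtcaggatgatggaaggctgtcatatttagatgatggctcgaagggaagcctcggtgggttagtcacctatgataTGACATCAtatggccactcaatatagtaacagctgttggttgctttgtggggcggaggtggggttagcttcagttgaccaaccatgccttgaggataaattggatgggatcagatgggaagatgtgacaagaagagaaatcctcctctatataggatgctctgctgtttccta
DUSP1 promoter, chr5:172771146-172771445, minus strand: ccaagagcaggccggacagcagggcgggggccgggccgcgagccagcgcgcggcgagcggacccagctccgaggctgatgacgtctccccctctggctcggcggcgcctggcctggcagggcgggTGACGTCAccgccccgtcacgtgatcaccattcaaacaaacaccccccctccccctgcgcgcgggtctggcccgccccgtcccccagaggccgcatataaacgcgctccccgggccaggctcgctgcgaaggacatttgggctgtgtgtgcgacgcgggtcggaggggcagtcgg
EGR1 promoter, chr5:138465229-138465528, plus strand: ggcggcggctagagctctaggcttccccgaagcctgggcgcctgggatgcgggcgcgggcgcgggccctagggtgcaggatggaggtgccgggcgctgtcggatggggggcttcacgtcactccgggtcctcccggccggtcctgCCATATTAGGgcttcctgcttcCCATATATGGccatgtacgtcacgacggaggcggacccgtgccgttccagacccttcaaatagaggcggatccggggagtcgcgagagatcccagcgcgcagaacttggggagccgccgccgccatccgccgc

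JUN and ATF3 hold the match TGACATCA, which begins 67 bases before the start of JUN and 123 bases before that of ATF3. DUSP1 holds the full palindrome TGACGTCA 125 bases before its start. EGR1 holds 2 CArG boxes, CCATATTAGG and CCATATATGG, which begin 105 and 83 bases before the start, and no match to TGACNTCA. Windows were present for 8 of the 10 genes, and the table holds a second start for ATF3, which has neither element. TGACNTCA was found for 3 of these 8 genes and in 7.72% of all 35116 windows, and the CArG box for 1 of 8 and in 1.29%. The TATA box letters TATAAA lay 30 bases before the start of DUSP1 and FOSB, 31 before that of JUNB and 33 before that of FOS, and 230 bases before the second start of ATF3, with 11.5% of all windows holding them. GCGNGGGCG, a form of the EGR binding site, was found for EGR1 alone among the 8 and in 9.43% of windows. TGANTCA, the AP-1 site, was found in none of the 8 genes' windows and in 7.71% of all. These matches describe letters in a window and do not show that a factor was bound.

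**Figure D1:**
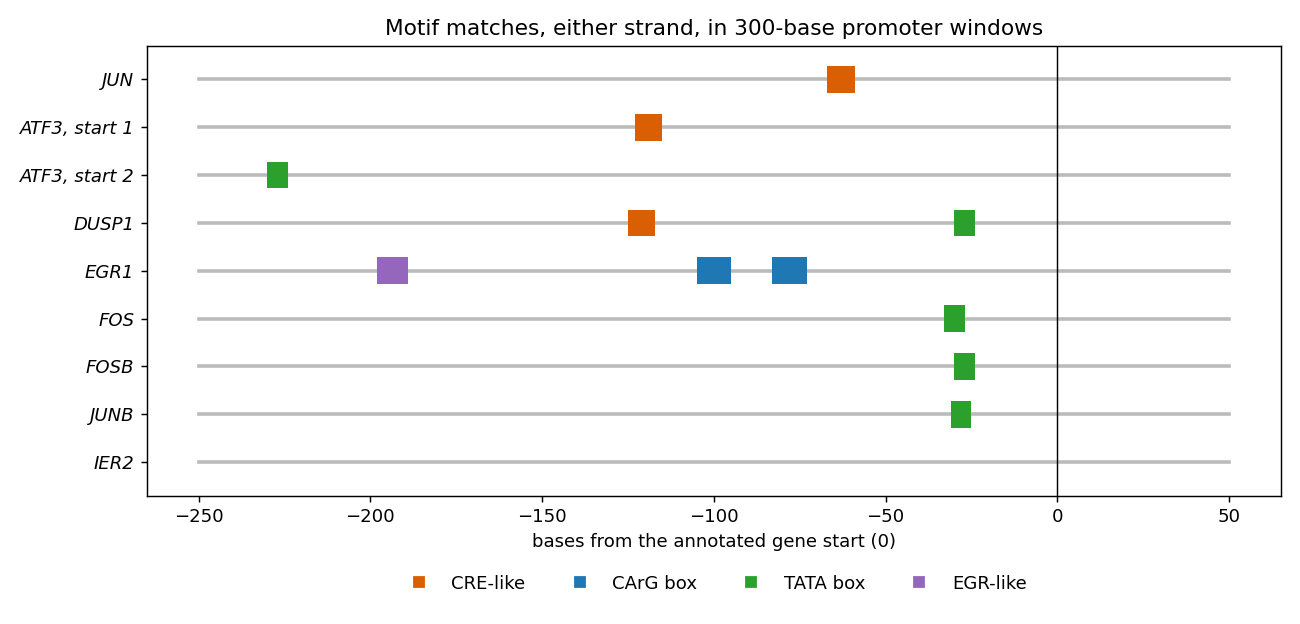
Matches to 4 motifs on either strand in the promoter windows of 8 immediate early genes, ATF3 with its 2 starts. The horizontal axis gives bases from the annotated start, grey lines are the windows, and coloured blocks are the matches: CRE-like is TGACNTCA, EGR-like is GCGNGGGCG and TATA box is TATAAA. JUN, the first ATF3 start and DUSP1 share a CRE-like match between 67 and 125 bases before the start, and EGR1 has 2 CArG boxes.

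Over the array as a whole, the medians of genes with and without the marked motifs were set side by side, with no test. Among genes with a TGACNTCA match and a value, the median log2 difference between CS and TCP was 0.04 over 948 genes, against 0.05 over 10308 genes whose windows lack it. Between CSHA and TCP, the medians were 0.13 over 953 genes and 0.13 over 10426. For the CArG box, the medians with and without the match were 0.05 and 0.05 on CS, over 173 and 11083 genes, and 0.20 and 0.13 on CSHA, over 180 and 11199. Between CSHA and CS, they were 0.13 and 0.06, over 177 and 11185 genes, against 0.08 and 0.06 for TGACNTCA.

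The immediate early genes did not share one direction on the membranes. EGR3 was not well above background on any array, and the other 9 genes were well above background on all 3, so 9 genes were compared. On CS, FOS, FOSB, JUN, ATF3 and DUSP1 were higher than on TCP and FOSL1, JUNB, EGR1 and IER2 were lower, and the same division held on CSHA. Both comparisons use the TCP array. The 5 of 9 genes that were higher stand beside 56.8% of the 14464 genes compared on CS and 61.7% of the 14623 compared on CSHA, and the 4 that were lower beside 43.2% and 38.3%. Over the 9 genes, the median log2 difference from TCP was 0.16 (CS) and 0.19 (CSHA), beside 0.04 and 0.13 for all genes compared. None of the 9 genes differed by 2-fold in any comparison by its brightest probe, which 1.37% of all genes did upward and 1.92% downward on CS, and 3.02% and 3.98% on CSHA. With a size of 1.5-fold, FOSB and ATF3 were higher and EGR1 was lower on CS, where 4.12% of all genes were higher and 5.03% lower by that size. On CSHA, JUN, ATF3 and DUSP1 were at least 1.5-fold higher and JUNB was lower, where 11.5% of all genes were higher and 11.2% lower. Directions on CSHA depended in part on the scaling. With the arrays scaled to spike-in probes, every difference from TCP moved up, by 0.05 for CS and 0.44 for CSHA. The median of all genes on CSHA was then 0.57. Then 7 of the 9 genes, EGR1 and IER2 among them, were higher on CSHA than on TCP, beside 84.4% of all genes. FOSB, JUN, ATF3 and DUSP1 were at least 2-fold higher, beside 12.5% of all genes. The shift is the same for every gene, so these counts say nothing particular to the group. RNA came from whole cultures, so fewer cells with a transcript and less of it per cell cannot be told apart.

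**Figure D2:**
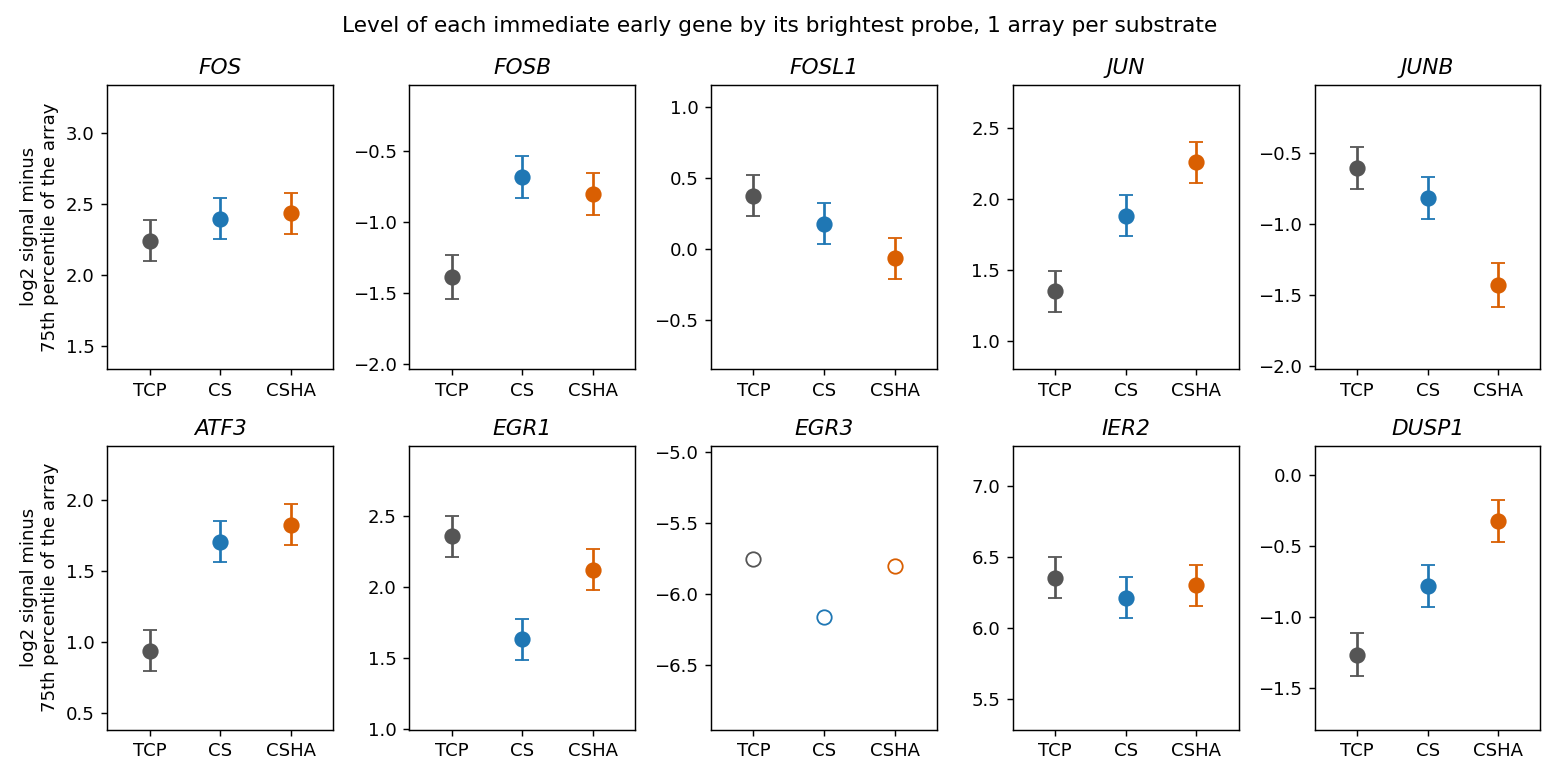
Level of each of the 10 immediate early genes on TCP, CS and CSHA, as log2 signal minus the 75th percentile of the array. Points are the brightest probe on 1 array, bars are the error that the scanner software gives, open points are not well above background, and every panel spans 2 log2 units around its own centre. DUSP1 and JUN step up from TCP to CS to CSHA, JUNB is lowest on CSHA, and EGR1 is lowest on CS.

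The FOS family supplies the partners that bind DNA in AP-1 together with a JUN protein. FOS (NM_005252), the founding member, had signals of 1676 on TCP, 2228 on CS and 1828 on CSHA, or levels of 2.24, 2.40 and 2.44. Its differences from TCP, 0.16 ± 0.20 on CS and 0.19 ± 0.20 on CSHA, were smaller than the error of the spots. FOSB (NM_006732), a close relative known for its accumulation after repeated stimulation in neurons, had signals of 135, 264 and 193 and levels of -1.39, -0.68 and -0.80. It was lowest on TCP, and its difference was 0.71 ± 0.21 on CS, or 1.63-fold, and 0.58 ± 0.22 on CSHA, which falls just under 1.5-fold. Of all genes compared on CS, 2.78% had a larger positive difference than FOSB. On CSHA, 11.5% did.

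FOSL1 (NM_005438), which encodes FRA-1, a member known for its link to invasion of carcinoma cells, lay on the other side of TCP. Its signals were 460, 479 and 323 and its levels 0.38, 0.18 and -0.06 on TCP, CS and CSHA. The difference was -0.20 ± 0.21 on CS and -0.44 ± 0.21 on CSHA, so that only the latter was larger than the error. The signal of FOSL1 before the shift was highest on CS, where the 75th percentile of the array was also highest, at 423 against 354 on TCP and 337 on CSHA.

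Within the JUN family, the measured genes lay on opposite sides of TCP. JUN (NM_002228), the main partner of FOS, had signals of 902 (TCP), 1557 (CS) and 1614 (CSHA) with levels of 1.35, 1.88 and 2.26. On CS it exceeded TCP by 0.53 ± 0.20, or 1.45-fold, and on CSHA by 0.91 ± 0.20, or 1.88-fold, and 3.78% of all genes had a larger positive difference on CSHA. JUNB (NM_002229), which can oppose JUN at many promoters, had signals of 232, 240 and 125 and levels of -0.61, -0.82 and -1.43. Its difference was -0.21 ± 0.21 on CS, about the size of the error, and -0.82 ± 0.21 on CSHA, where TCP exceeded it 1.77-fold. On CSHA, 6.02% of all genes lay lower than JUNB.

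ATF3, a bZIP protein of the ATF/CREB family induced by many stresses, was the member furthest above TCP on CS when the brightest probe is used. By this probe, its signals were 681 (TCP), 1382 (CS) and 1198 (CSHA), with levels of 0.94, 1.71 and 1.83. The difference was 0.77 ± 0.20 on CS, or 1.70-fold, and 0.89 ± 0.20 on CSHA, or 1.85-fold. Of all genes compared, 2.32% on CS and 4.04% on CSHA had a larger positive difference.

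The 4 ATF3 probes did not all give this result. The second brightest, assigned to the same accession NM_001040619 as the brightest, had signals of 136, 156 and 137 and differences of -0.06 ± 0.22 on CS and 0.08 ± 0.22 on CSHA. The third, assigned to NM_001674, had signals of 89.7, 149 and 185, and it exceeded TCP by 0.48 ± 0.23 on CS and 1.12 ± 0.23 on CSHA, the only value past 2-fold among the 13 probes. The dimmest probe was not well above background on TCP, where only a bound can be given. It lay at least 0.46 above TCP on CS and at least 0.56 above it on CSHA, with larger errors of 0.41 and 0.43. Its signals were 26.2 on TCP, 43.0 on CS and 36.8 on CSHA. In all, 3 of the 4 probes placed ATF3 above TCP on both membranes by more than the error of the spots, and the second brightest did not. Probe sequences were not used here, and which part of the transcript each probe reads was not analysed. The mean over the probes gave 0.41 on CS and 0.66 on CSHA. On CS, this mean was under 1.5-fold and lay below FOSB at 0.71, JUN at 0.53 and DUSP1 at 0.48.

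DUSP1 (NM_004417), which switches off ERK, JNK and p38 and so limits the signals that induce the other members, was the gene of the group with the most spots, since its probe was printed 10 times on each array. Its 10 spots on TCP ran from 128 to 179 with a median of 144. On CS, 9 spots that carried no outlier flag ran from 230 to 260 with a median of 247, and on CSHA the 10 spots ran from 233 to 293 with a median of 267. In these signals, the spots on CS and CSHA overlapped, and those on TCP lay below both. Only after the shift by the 75th percentile did the spots of CS and CSHA separate. The highest level on TCP was then -0.98, the spots on CS lay between -0.88 and -0.70, and the lowest on CSHA was -0.53. How many other repeated probes separate in this way was not examined. The mean of the spots exceeded that on TCP by 0.48 on CS, or 1.40-fold, and by 0.94 on CSHA, or 1.92-fold. The error used for the other members, from the scanner software, was 0.21 for each of these differences, much as for those genes. The standard error from the spots was 0.05 for CS and 0.06 for CSHA. It holds the variation of spots on an array alone and cannot be set against the errors of the other members. On CSHA this was the largest positive difference among the brightest probes of the group, and 3.48% of all genes had a larger one.

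**Figure D3:**
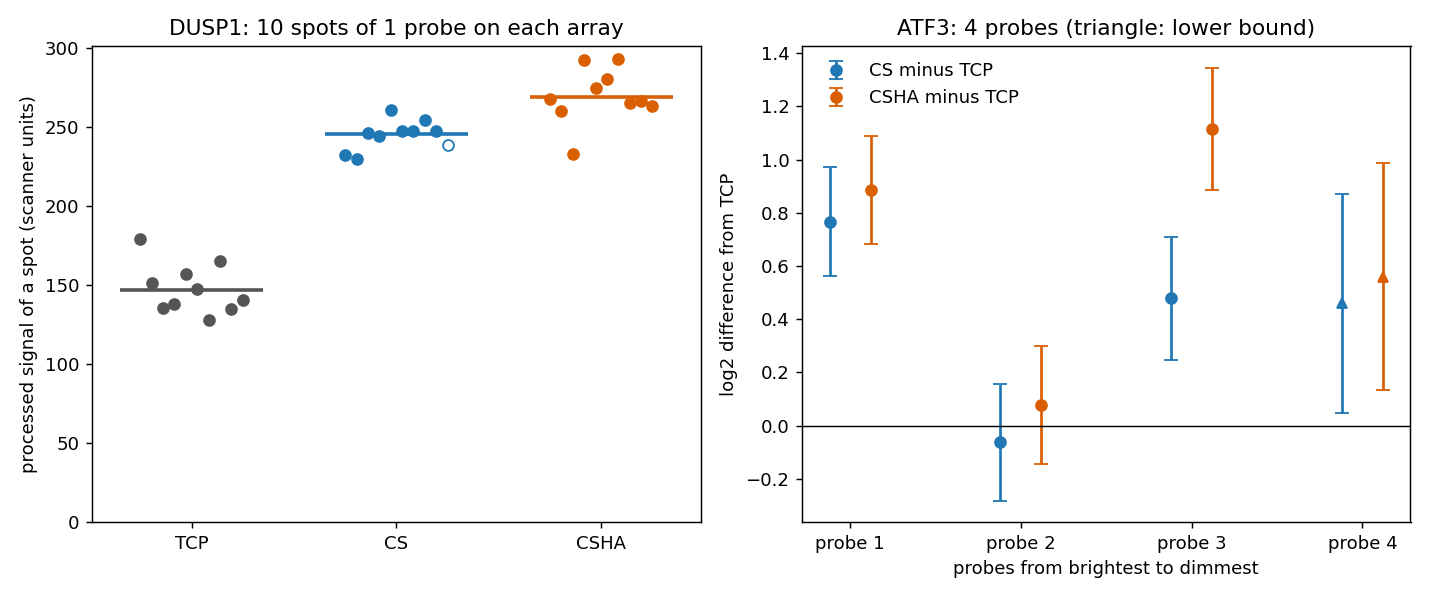
Left, processed signal of the 10 DUSP1 spots on each array in scanner units, with bars at the geometric mean and 1 open spot on CS left out for its outlier flag. Right, log2 difference from TCP of the 4 ATF3 probes from brightest to dimmest, with the software's error and triangles for lower bounds against a TCP signal at background. All TCP spots of DUSP1 lie below all spots of CS and CSHA, and the second ATF3 probe lies at -0.06 and 0.08 while the other 3 are higher.

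The EGR proteins are zinc finger factors induced by ERK signaling. EGR1 (NM_001964), the best known of them, had signals of 1815 (TCP), 1312 (CS) and 1469 (CSHA) with levels of 2.36, 1.63 and 2.12. It was highest on TCP and lowest on CS. The difference was -0.72 ± 0.20 on CS, where TCP exceeded it 1.65-fold, and 3.51% of all genes lay lower. On CSHA, EGR1 was at -0.23 ± 0.20, and with the arrays scaled to spike-in probes it was at 0.20, so its direction on CSHA depended on the scaling. EGR3 (NM_004430), a relative that EGR1 shares targets with, had signals of 6.57, 5.90 and 6.04, under the lowest signals well above background of 24.1, 21.1 and 22.6, and no difference is given for it.

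IER2 (NM_004907), which encodes a small nuclear protein of the immediate early response, had signals of 29003, 31447 and 26628 and levels of 6.36, 6.22 and 6.30. Its differences of -0.14 ± 0.20 on CS and -0.05 ± 0.20 on CSHA were within the error. With spike-in scaling, IER2 was at 0.38 on CSHA. By the 75th percentile scaling, it was the member that differed least between TCP and CSHA.

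CSHA was also compared with CS, its counterpart without the hyaluronan graft. No member differed by 2-fold, as 2.27% of the 14599 genes compared did upward and 2.15% downward, and 1 of 9, JUNB, differed by 1.5-fold, where 7.33% of all genes were lower and 7.68% higher by that size. JUNB was at -0.61 ± 0.21. EGR1 was higher on CSHA than on CS by 0.49 ± 0.20, DUSP1 by 0.46 ± 0.21 and JUN by 0.38 ± 0.20. FOSL1 was at -0.24 ± 0.21, and at 0.14 with spike-in scaling. For FOS, FOSB, IER2 and ATF3, the differences between the membranes, from -0.12 to 0.12, were within the error. In all, 6 of 9 members were higher on CSHA than on CS, beside 58.5% of all genes, and 3 were lower, beside 41.5%. With spike-in scaling, which raises every one of these differences by 0.38, 8 of 9 were higher, beside 86.8% of all genes. With the 75th percentile scaling, the median of the 9 was 0.09 against 0.07 for all genes.

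**Figure D4:**
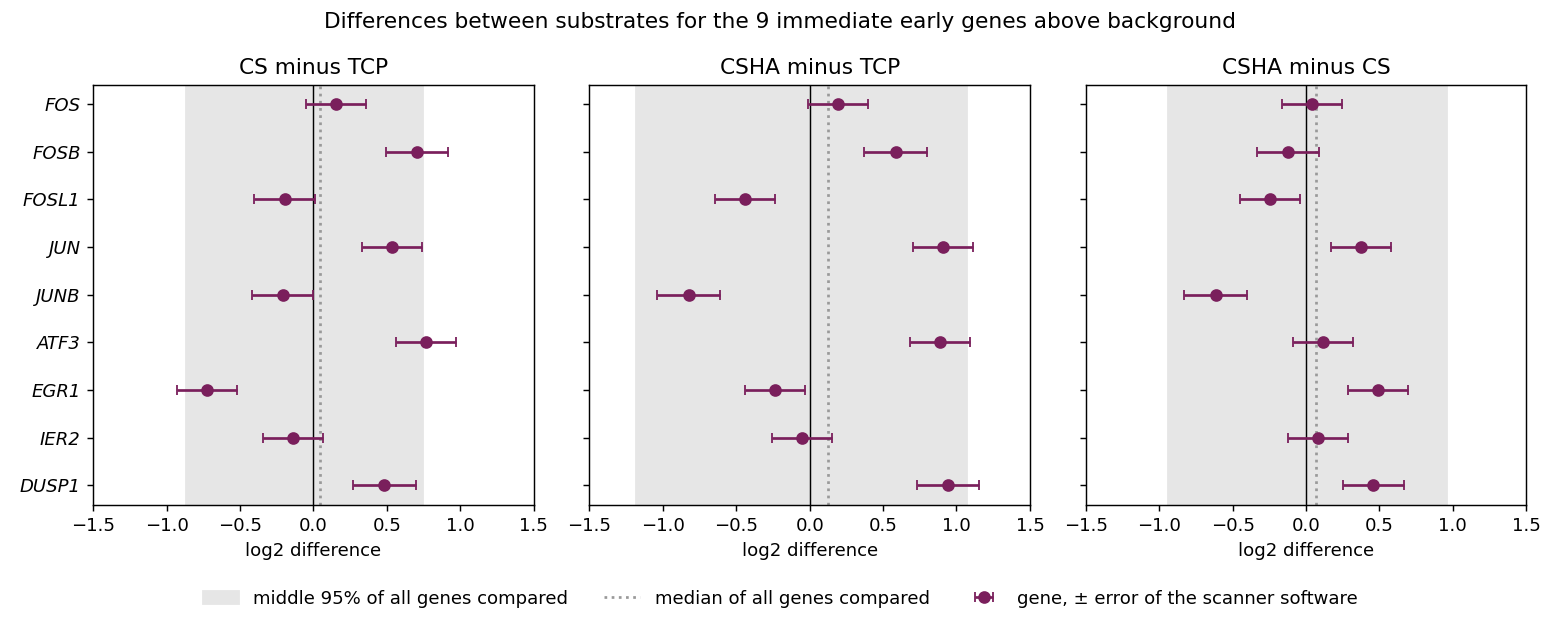
Log2 difference of the 9 measured immediate early genes for CS minus TCP, CSHA minus TCP and CSHA minus CS. Points are the brightest probe with the error of the scanner software, the grey band holds the middle 95% of all genes compared, and the dotted line is their median. ATF3, at 0.77 on CS, lies just outside the band, and the members otherwise lie inside it on both sides of 0.

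The other genes of these pathways were read from 7 lists written from general knowledge with earlier results of these data known. The counts in each list stand beside 56.8% of all genes higher and 43.2% lower on CS, and 61.7% and 38.3% on CSHA. Among 12 AP-1 partners, which include further bZIP proteins that pair with FOS or JUN, 7 were higher and 5 lower on each membrane, with medians of 0.04 on CS and 0.06 on CSHA, near the medians of all genes, and 0 differed by 2-fold. FOSL2 was higher by 0.48 and 0.41, and JUND by 0.29 and 0.47. MAFK, a small MAF protein, was at -0.36 and -0.80. The probes of ATF2 gave opposite signs on CS, with -0.57 from the brighter and 0.30 from the dimmer one.

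Of 5 genes of the EGR family and the NAB corepressors, which bind EGR proteins and damp their activity, 4 had a value, 2 higher and 2 lower on each membrane. EGR4 gave no signal well above background on TCP. It lay at least 0.52 above it on CS and at least 1.26 above it on CSHA. EGR2 was above background on TCP alone, so its difference was -0.59 or lower on CS and -0.16 or lower on CSHA. Both were dim, with signals on TCP, CS and CSHA of 25, 43 and 58 for EGR4 and 27, 21 and 14 for EGR2. The lowest signals well above background were 24.1, 21.1 and 22.6. NAB2, itself a target of EGR1, was at -0.52 and -0.39, and NAB1 at 0.11 and 0.08.

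The list of 37 other immediate early genes gave 33 values on CS, 17 higher and 16 lower, with a median of 0.02, and 34 on CSHA, 23 higher and 11 lower, with a median of 0.16. KLF4, a factor of differentiating gut epithelium, exceeded TCP by 0.98 with CS and by 0.43 with CSHA. BTG1 and BTG2, which restrain proliferation, were higher by 0.61 and 0.50 on CS and by 0.99 and 0.94 on CSHA. KLF6 was higher by 0.45 and 0.94 by its brightest probe. ZFP36L2, which promotes the decay of AU-rich transcripts, was at 0.37 and 1.06, at least 2-fold higher on CSHA. CCN2, a matrix-associated signaling protein, had only a bound there, of at least 0.78. It was dim, with signals of 30 (TCP), 35 (CS) and 50 (CSHA). At least 2-fold lower on CSHA were HES1, a target of Notch signaling, at -0.64 on CS and -1.39 on CSHA, and PPP1R15A, which encodes GADD34 of the stress response, at -0.25 and -1.15. The orphan receptors NR4A1 and NR4A3 and the neuronal gene NPAS4 were not well above background on any array.

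**Figure D5:**
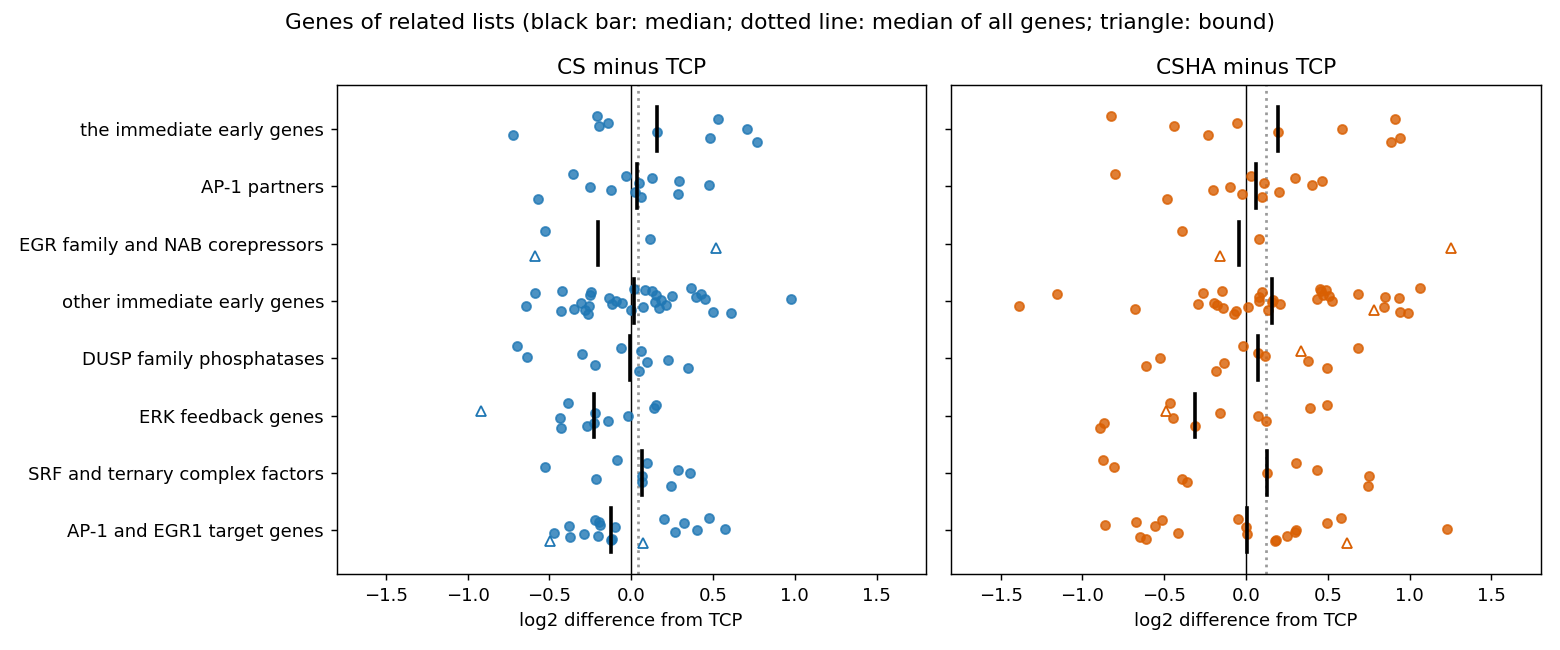
Log2 difference from TCP on CS and CSHA for the immediate early genes and 7 related lists. Each point is a gene by its brightest probe, triangles are bounds, black bars are list medians and the dotted line is the median of all genes compared. The list labelled ERK feedback genes also holds other ERK outputs, and that of SRF and ternary complex factors also holds CREB1, CREM and FHL2. The ERK feedback list has medians of -0.23 on CS and -0.31 on CSHA, and the other lists have medians between -0.20 and 0.19.

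Genes known to respond to ERK signaling were also listed. The arrays measure transcripts, and ERK activity itself was not tested. Of 12 genes listed as feedback regulators or other outputs of ERK, 11 had a value, and IL1A had none. ETV4, ETV5, PHLDA1 and CCND1 were listed as outputs, and DUSP4, DUSP5 and DUSP6 were counted with the DUSP phosphatases instead. Of the 11, 2 were higher and 9 lower on CS, and 4 higher and 7 lower on CSHA. Of all genes, 43.2% and 38.3% were lower. The medians were -0.23 and -0.31, against 0.04 and 0.13 for all genes. Spike-in scaling, which shifts every gene alike, placed the medians at -0.17 and 0.13, against 0.10 and 0.57 for all genes. The 10 genes measured on both arrays differed by less than 2-fold. SPRED3, which was above background on TCP alone, at a dim signal of 33, was at -0.92 or lower on CS and -0.49 or lower on CSHA. PHLDA1 was at -0.43 and -0.45, CCND1, which encodes cyclin D1, at -0.43 and -0.89, and ETV4, an ETS factor downstream of ERK, at -0.23 and -0.87. SPRY2, an inhibitor of receptor tyrosine kinase signaling, was instead higher by 0.15 and 0.50. The 12 other DUSP phosphatases were mixed, with 5 higher and 5 lower on CS and 6 higher and 5 lower on CSHA. DUSP6, the ERK-specific phosphatase, was at 0.06 and 0.07, and DUSP4 was at -0.63 and -0.52, whereas DUSP1 was higher on both membranes.

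A list of 9 genes held SRF, MRTFA, MRTFB and the ternary complex factors ELK1, ELK3 and ELK4. It also held CREB1, CREM and FHL2, which are not ternary complex factors. Of the 9, 6 were higher on CS and 5 on CSHA, beside 56.8% and 61.7% of all genes, with medians of 0.07 and 0.13. For SRF, the factor that binds the CArG box, the differences were -0.09 with CS and -0.88 with CSHA. Those of its coactivator MRTFA were -0.53 and -0.81. ELK3 was higher by 0.07 and 0.75, and CREB1, which binds the CRE, by 0.25 and 0.75. SRF and ELK3 were dim, with signals of 72, 81 and 37 for SRF and 35, 44 and 56 for ELK3 on TCP, CS and CSHA. The lowest signals well above background were 24.1, 21.1 and 22.6. Spike-in scaling raises each of these differences on CSHA by 0.44. Of 25 genes known as targets of AP-1 or EGR1, 19 had a value. On CS, 7 were higher and 12 lower with a median of -0.13, and on CSHA 10 were higher and 9 lower with a median of 0.01. Of all genes, 43.2% were lower on CS and 38.3% on CSHA. NDRG1 was higher by 0.57 and 1.23, and the urokinase receptor gene PLAUR was at -0.19 and -0.86. MMP1, MMP3, MMP10 and MMP13, collagenase and stromelysin genes that AP-1 controls, were not well above background on any array. MMP7 and MMP9, from the same list, were well above background on every array. Relative to TCP, MMP7 stood at 0.27 (CS) and 0.30 (CSHA), and MMP9 at 0.41 (CS) and 0.30 (CSHA). MMP9 was dim, with signals of 44 (TCP), 69 (CS) and 51 (CSHA).

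By distance in the pair of differences from TCP, the 5 genes nearest to EGR1 among the other 13483 genes measured on all arrays were PRR36, NUGGC, CCM2L, SOAT2 and LINC01630. Their distances ran from 0.02 to 0.08 on the log2 scale, with differences between -0.74 and -0.68 on CS and between -0.29 and -0.16 on CSHA. The genes were picked by these same differences, so their likeness follows from the choice, and it rests on 3 arrays.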

How the data were processed

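RNA of HT29 cells from 3 substrates was hybridized to single-colour Agilent 8 × 60k arrays, 1 array per condition. The scanner files that the authors deposited give, for each spot, a background-corrected intensity, flags and an estimated error, all from Feature Extraction 10.7.3.1. A deposited table also holds log2 values. Their differences between arrays match those of the uncorrected median signal up to a constant, so they carry no background subtraction, and their centring per spot is only partly known. They served as an alternative. Columns of that table without a sample numbered 0. The submitters' processing notes name limma.

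Here the processed intensity was raised to a floor of 1 and put on the log2 scale, spots with outlier flags were left out, spots of a probe were averaged, and each array's 75th percentile, control probes excluded, was subtracted. Accessions were matched to symbols through RefSeq (GRCh38.p14) for 30004 of 50599 probes, or 59.3%. The brightest probe stood for a gene. A comparison needed a gene well above background on either array. Where 1 of them failed, a bound was taken against the lowest signal well above background there, or against the probe's own signal where that was higher. A call means at least 2-fold, with no test. The number of arrays limits the precision. The members, lists and motifs were chosen with earlier results of these data known. The rule for named genes took all members, the highest, lowest and 2-fold different genes of each list, not all of them printed, and the 5 genes nearest to EGR1. Further list genes were chosen after their values were seen. The calculation was tested on simulated data. In all, 10 alternatives were tried besides sizes of 1.5-fold and 3-fold. Calculations used Python 3.11.15 with pandas 2.3.3, numpy 2.4.6 and matplotlib 3.10.9, and limma 3.58.1 in R 4.3.3.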

Additional observations from a re-analysis of the deposited data

How the results depend on the processing

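The 9 genes were recomputed under 10 alternatives, which gave 270 values, of which 25 moved by more than the software's error. Of the values beyond that error, 2 changed sign. Scaling to 7 spike-in probes moved the most values. For CSHA relative to TCP and to CS, it placed the median over all genes at 0.57 and 0.46, against 0.13 and 0.07, and that over the members at 0.63 and 0.47. With it, 4 members were at least 2-fold higher on CSHA than on TCP, beside 12.5% of all genes. These were FOSB at 1.02, ATF3 at 1.32, JUN at 1.35 and DUSP1 at 1.38. By the same scaling, EGR1 was at 0.20 on CSHA relative to TCP, and FOSL1 was at 0.14 on CSHA relative to CS. With no filter on dim probes, which adds EGR3, the median of the members was 0.0082 on CS and 0.072 on CSHA relative to TCP. With a size of 1.5-fold, 2 members were higher and 1 lower on CS, beside 4.12% and 5.03% of all genes. On CSHA, 3 were higher and 1 lower, beside 11.5% and 11.2%, and 1 was lower on CSHA relative to CS, beside 7.33%. With normexp, FOSB was at 0.48 on CS, JUNB at -0.61 and DUSP1 at 0.69 on CSHA, and with the deposited values FOSB was at 0.47 on CS and DUSP1 at 0.71 on CSHA. On CS relative to TCP, all 9 genes kept their sign in every alternative, and EGR1 ran from -0.79 to -0.65. Over all genes, those 2-fold or more above TCP numbered 198 and those below it 278 on CS, and 442 and 582 on CSHA. These counts became 55 and 104, and 155 and 292, with normexp, 68 and 137, and 184 and 328, with the deposited values, 87 and 98, and 268 and 448, with genes above background on both arrays, and 635 and 1152, and 1130 and 1190, with no filter. With spike-in scaling, 1809 were higher and 176 lower on CSHA. No paired analysis was possible because there was 1 array per condition. The members that moved with the background correction, FOSB, JUNB and DUSP1, had signals of 125 to 269. Without replicate arrays, differences between cultures of 1 substrate could not be measured.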
